A study of Mus musculus with 24 samples.

Results

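Expression of 10 antioxidant and Nrf2 response genes was measured in the tibialis anterior (TA) muscle of mice treated with photobiomodulation therapy (PBMT), an exposure to near-infrared light. The genes, Nfe2l2, Keap1, Hmox1, Nqo1, Gclc, Gclm, Txnrd1, Sod1, Sod2 and Cat, were chosen by name, and 10 of 10 were found by symbol among the 55487 gene identifiers counted. The study asked how a light exposure on the day before alters the transcripts of resting muscle and of muscle run to exhaustion. All 24 animals were male WT C57BL/6J mice aged 5 to 7 weeks, with 6 mice in each of 4 groups, and poly(A)-selected, directional libraries were made from the left TA. PBMT mice were shaved, anesthetized and exposed to an 830 nm LED at 25 mW per square cm for 20 min (30 J per square cm), and tissue was taken 24 h after the exposure. Controls were shaved and kept under anesthesia for 20 min without light, so no group received a sham light or heat alone. Sedentary mice did not run, whereas fatigued mice ran on a treadmill to exhaustion and were dissected immediately afterwards. Sedentary and fatigued mice were sequenced as separate projects, so exercise state and sequencing project cannot be told apart.

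The transcription factor Nrf2, encoded by Nfe2l2, is held in the cytoplasm and marked for degradation by Keap1, whose reactive cysteines are modified by oxidants and electrophiles. Released Nrf2 pairs with small Maf proteins on antioxidant response elements and raises transcription of genes for glutathione synthesis, quinone and heme breakdown and the thioredoxin system. Contracting muscle makes superoxide and hydrogen peroxide, which superoxide dismutases, catalase and the peroxidases remove, and Nrf2 is controlled in large part at the protein level, which RNA counts do not measure.

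The total count per mouse had a lowest, median and highest value of 43271093, 45278264 and 46904076 in sedentary controls and of 46327516, 49421795.5 and 52775844 in sedentary PBMT mice. In fatigued controls these values were 56792327, 61892167.5 and 68726155, and in fatigued PBMT mice they were 53122528, 60228908.5 and 68566029. At this depth every member was counted at least 149 times in every mouse, so that the spread between mice rather than counting set the precision. Expression is given as CPM, in which counts are scaled to totals normalized over the 24 mice, and 10 of 10 members passed the filter on low counts in each comparison. Fast fiber markers made up a median of 119490 CPM in sedentary controls and were led by Tnnt3, at a mean level of 18312.3 CPM per kilobase of transcript, so markers of the labelled muscle were present. In sedentary controls, replicate 4 stood apart: it held the highest or the lowest value of the group for 9 of 10 members and the highest fast fiber sum, 157965 CPM. Over the genes counted, the chi-square of the count difference per gene was 432.8 to 465.6 between this library and the other 5 of its group, beside 13.5 to 74.2 between those 5. Calls of members that appear or are lost without this mouse are given both ways.

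Levels of different genes were compared per length, as mean CPM per kilobase of the principal transcript over the 24 mice. On this scale the level of Sod1 was 162 (139 to 197 over the mice), and that of Sod2 was 54.8 (43.3 to 62.7). Neither overlapped its neighbor in the order, although with the merged exon length in place of the transcript length Sod2, at 32.1, ranked above Sod1, at 26.2. The levels of Keap1 (26.3), Txnrd1 (26.004), Cat (23.7) and Nfe2l2 (18.5) followed, and each overlapped the next over the mice. Lower per-length levels were found for Nqo1 (8.38), Hmox1 (7.22), Gclm (2.94) and Gclc (2.498), which also overlapped their neighbors. The dismutases were thus the most abundant transcripts per length and the enzyme subunits of glutathione synthesis the least abundant among the 10 members. Between mice of a group, the pooled standard deviation of log2 CPM ran from 0.116 for Cat to 0.432 for Hmox1, beside a median of 0.232 over 15108 genes.

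**Figure D1:**
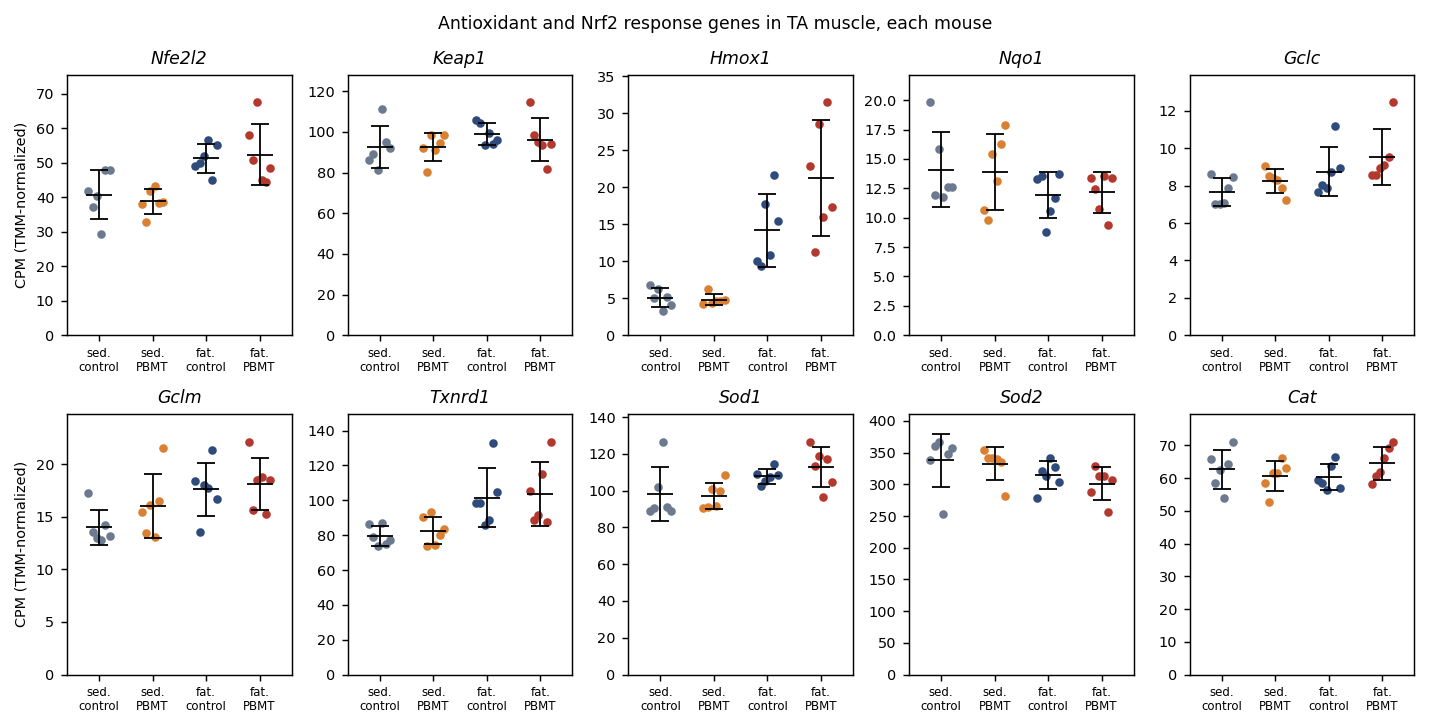
Expression of the 10 members in CPM, with each point a mouse and each panel a gene, in the 4 groups of 6 mice. Hmox1 lies between 3.27 and 6.84 CPM in sedentary controls and between 9.36 and 21.7 CPM in fatigued controls, whereas the groups of the other members lie closer together.

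The first question was whether PBMT alters these genes in resting muscle. By edgeR at an adjusted p under 0.05, 0 of 10 members were called in sedentary muscle, beside 4 of 14177 genes (0.0282%) called in all. At an unadjusted p under 0.05 the count of members was also 0, beside 1082 of all genes. DESeq2 called 0 members, beside 62 genes, with 0 at an unadjusted p under 0.05, beside 1185 genes. The log2 fold changes ran from -0.09 to 0.20 with a median of -0.01, beside -0.00 over all genes, and 4 of 10 were positive, beside 49.6% of all genes. Adjusted p-values of the members lay between 0.674 and 0.986, and the 95% intervals together spanned -0.44 to 0.45. Without sedentary control replicate 4 the log2 fold changes ran from -0.19 (Hmox1) to 0.17 (Gclm), with Nfe2l2 at -0.15, Sod2 and Cat at -0.09 and Sod1 at 0.07, and adjusted p-values from 0.570 to 0.920. In bulk muscle, fewer cells of a type and less RNA per cell cannot be told apart, which holds for each value given here.

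In fatigued muscle the same question gave 0 of 10 members called by edgeR, beside 0 of 14574 genes (0%), and 0 members at an unadjusted p under 0.05. Over all 14574 genes, edgeR gave 230 at that unadjusted threshold. DESeq2 also called 0 members, beside 2 genes, with 1 (Hmox1) at an unadjusted p under 0.05, beside 262 genes. The members' log2 fold changes ran from -0.06 to 0.59 with a median of 0.04, beside 0.00 over all genes, and 8 of 10 were positive, beside 52.0% of all genes. Every adjusted p-value was 0.9998, and the 95% intervals together spanned -0.23 to 1.19. The difference of the PBMT effect between fatigued and sedentary muscle was called for 0 of 10 members by edgeR, beside 1 of 15108 genes (0.00662%). For that difference, 0 members reached an unadjusted p under 0.05 in edgeR, beside 665 of all genes. DESeq2 called 0 members, beside 3 genes, with 1 (Hmox1) at an unadjusted p under 0.05, beside 717 genes.

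**Figure D2:**
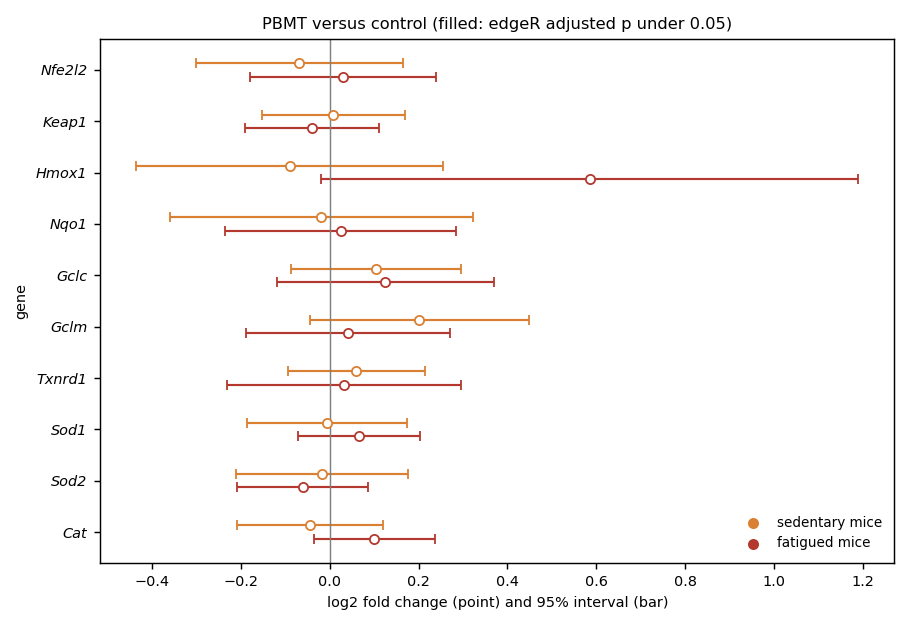
Log2 fold change of PBMT over control for each member in sedentary and in fatigued muscle, with points for the edgeR estimates (6 against 6 mice) and lines for their 95% intervals. Each interval includes 0, and the widest is that of Hmox1 in fatigued muscle, from -0.02 to 1.19.

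The fatigued groups differed from the sedentary groups in more of the members, a difference in which exercise and sequencing project cannot be told apart. Among control mice, 4 of 10 members were called higher in fatigued muscle and 0 lower by edgeR, beside 9.36% of 14323 genes called higher and 7.16% called lower. Among PBMT mice, 4 of 10 members were called higher and 0 lower, beside 14.2% of 14325 genes higher and 12.7% lower. DESeq2 also called 4 members in each of these comparisons, beside 2974 of 14323 genes among controls and 4412 of 14325 among PBMT mice. At an unadjusted p under 0.05 both tools gave 4 members among control mice and 5 among PBMT mice. At that threshold edgeR gave 4438 of 14323 and 5613 of 14325 genes over all, and DESeq2 gave 4611 and 5736. Groups that did not overlap, with every fatigued mouse above every sedentary mouse, were found for 1 of 10 members in controls, beside 4.23% of all genes, and for 2 of 10 with PBMT, beside 6.23%. The median log2 fold change of the members was 0.17 among controls and 0.20 with PBMT, beside -0.00 and 0.00 over all genes. The members had been chosen with earlier results known, so nothing is read from their share. Without sedentary control replicate 4, 6 members and 3956 genes were called among controls, in place of 4 and 2366. Without sedentary control 2 or 3 or fatigued control 1, 3, 4 or 6, 2 members were called there, as also among PBMT mice without sedentary PBMT mice 2, 4 or 5.

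Nfe2l2 (ENSMUSG00000015839, chr2:75675513-75704641 of GRCm38, minus strand) encodes Nrf2 itself. Its expression had a lowest, median and highest value of 29.2, 41.2 and 48.0 CPM in sedentary controls and of 32.8, 38.4 and 43.3 CPM in sedentary PBMT mice. In fatigued muscle the values were 45.1, 50.9 and 56.6 CPM in controls and 44.4, 49.6 and 67.5 CPM with PBMT. The PBMT groups thus overlapped their controls in both states, whereas 5 of 6 fatigued controls lay above the highest sedentary control and 6 of 6 fatigued PBMT mice lay above the highest sedentary PBMT mouse. With PBMT the log2 fold change of Nfe2l2 was -0.07 in sedentary muscle (95% interval -0.30 to 0.16, edgeR adjusted p = 0.871) and 0.03 in fatigued muscle (-0.18 to 0.24, adjusted p = 0.9998). From sedentary to fatigued muscle Nfe2l2 rose by 0.34 on the log2 scale in control mice (standard error 0.106, 1.26-fold, edgeR adjusted p = 0.0408). Among PBMT mice it rose by 0.44 (standard error 0.103, 1.35-fold, edgeR adjusted p = 0.00636), with exercise and project not separable in either comparison. The call among controls was lost in 8 of 12 fits that left out a mouse, namely sedentary controls 1, 2 or 3 or fatigued controls 1, 2, 3, 4 or 6, where the log2 fold change was 0.31 to 0.35 and the adjusted p 0.0575 to 0.0920. Without sedentary control replicate 4 it was 0.25 with an adjusted p of 0.0262, and among PBMT mice the call was kept in 12 of 12 such fits.

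Keap1 (ENSMUSG00000003308, chr9:21229730-21239361, minus strand) encodes the adaptor that hands Nrf2 to the Cul3 ubiquitin ligase. Its median expression was 90.5 CPM in sedentary controls, 93.3 CPM in sedentary PBMT mice, 97.7 CPM in fatigued controls and 94.5 CPM in fatigued PBMT mice, within a range of 80.3 to 114 CPM over the 24 mice. All 4 groups overlapped. The log2 fold change with PBMT was 0.01 in sedentary muscle (95% interval -0.15 to 0.17) and -0.04 in fatigued muscle (-0.19 to 0.11). Fatigued and sedentary mice, whose projects also differed, were separated by 0.11 among controls (-0.05 to 0.26, edgeR adjusted p = 0.350) and by 0.06 with PBMT (-0.10 to 0.22, adjusted p = 0.595). Without sedentary control replicate 4 the value among controls was 0.15, with an adjusted p of 0.05005, just over the threshold. The sensor transcript thus showed no called difference, and whether it differed from Nfe2l2 in its response was not tested. An antisense gene, Gm16754, overlaps Keap1 and held 126 counts over the 24 mice, beside 123731 for Keap1.

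Hmox1 (ENSMUSG00000005413, chr8:75093621-75100589, plus strand) encodes heme oxygenase 1, which breaks heme down to biliverdin, iron and carbon monoxide. Its lowest, median and highest values were 3.27, 5.09 and 6.84 CPM in sedentary controls and 4.19, 4.57 and 6.25 CPM in sedentary PBMT mice. In fatigued controls they were 9.36, 13.2 and 21.7 CPM, and in fatigued PBMT mice they were 11.3, 20.1 and 31.5 CPM. Every fatigued mouse therefore lay above every sedentary mouse, and replicate 5 was the highest of its group in both fatigued groups. Hmox1 rose by 1.48 on the log2 scale from sedentary to fatigued controls (95% interval 1.01 to 1.95, 2.79-fold, edgeR adjusted p = 4.06e-04, higher in 6 of 6 mice). Among PBMT mice it rose by 2.16 (1.67 to 2.64, 4.45-fold, edgeR adjusted p = 4.35e-05, higher in 6 of 6 mice). Here too the exercise state is also the project, and both calls were kept in 12 of 12 fits that left out a mouse, with log2 fold changes of 1.31 to 1.58 in controls and 2.02 to 2.28 with PBMT.

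Between PBMT and control mice Hmox1 gave the largest difference of the 10 members, in fatigued muscle, where run time may differ along with light. There 3 of 6 PBMT mice, replicates 1, 3 and 5, at 22.8, 28.6 and 31.5 CPM, lay above the highest control, and the groups overlapped in the remaining mice. The log2 fold change was 0.59 (standard error 0.278, 95% interval -0.02 to 1.19), a 1.501-fold difference with an interval of 0.987 to 2.28. It did not pass the threshold (edgeR adjusted p = 0.9998), and the exact permutation test, two-sided over 6 against 6 mice, gave p = 0.0931. In fits that left out a mouse the value lay between 0.44 and 0.75. In sedentary muscle the log2 fold change was -0.09 (95% interval -0.44 to 0.26, adjusted p = 0.887, exact permutation p = 0.721). The difference between the states was 0.68 (-0.01 to 1.37, edgeR adjusted p = 0.946), and was not called.

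Nqo1 (ENSMUSG00000003849, chr8:107388225-107403206, minus strand) encodes a quinone reductase that uses NADH or NADPH and is among the best known Nrf2 targets. Its median expression was 12.6 CPM in sedentary controls, 14.3 CPM in sedentary PBMT mice, 12.5 CPM in fatigued controls and 12.9 CPM in fatigued PBMT mice, with 8.80 to 19.8 CPM over the 24 mice. The groups overlapped throughout. The log2 fold change with PBMT was -0.02 in sedentary muscle (95% interval -0.36 to 0.32) and 0.02 in fatigued muscle (-0.23 to 0.28). Between fatigued and sedentary mice, with project not separable, it was -0.23 in controls (-0.53 to 0.07, edgeR adjusted p = 0.286) and -0.19 with PBMT (-0.50 to 0.12, adjusted p = 0.357). Nqo1 thus had the opposite sign to Hmox1 in both comparisons, without a call.

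Glutamate cysteine ligase, the rate-limiting enzyme of glutathione synthesis, consists of a catalytic subunit, encoded by Gclc, and a modifier subunit, encoded by Gclm. Gclm (ENSMUSG00000028124, chr3:122245557-122270732, plus strand) had a lowest, median and highest value of 12.8, 13.4 and 17.2 CPM in sedentary controls and of 13.1, 15.8 and 21.5 CPM with PBMT. In fatigued muscle the values were 13.5, 17.9 and 21.4 CPM in controls and 15.3, 18.5 and 22.1 CPM with PBMT. Sedentary controls were the lowest group by median, and 4 of 6 fatigued controls lay above the highest of them. The log2 fold change of Gclm with PBMT was 0.20 in sedentary muscle (95% interval -0.05 to 0.45, edgeR adjusted p = 0.674, exact permutation p = 0.175 over 6 against 6 mice), the largest of the 10 members there. In fits that left out a mouse this value lay between 0.0992 and 0.274, a range that overlapped that of Gclc (0.0733 to 0.145). In fatigued muscle the log2 fold change of Gclm was 0.04 (-0.19 to 0.27), and the difference between the states was -0.16 (-0.49 to 0.18, edgeR adjusted p = 0.946). Among controls Gclm rose by 0.34 from sedentary to fatigued muscle (standard error 0.104, 1.27-fold, edgeR adjusted p = 0.0360), and among PBMT mice the log2 fold change was 0.18 (-0.07 to 0.43, adjusted p = 0.282), with exercise and project inseparable. That contrast between control and PBMT mice is the same difference of -0.16, which was not called. The call was lost in 9 of 12 fits that left out a mouse, namely sedentary controls 2, 3, 5 or 6 or fatigued controls 1, 3, 4, 5 or 6, where the log2 fold change was 0.27 to 0.36 and the adjusted p 0.0527 to 0.0835.

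Gclc (ENSMUSG00000032350, chr9:77754535-77794485, plus strand) had median values of 7.48 CPM in sedentary controls, 8.36 CPM in sedentary PBMT mice, 8.37 CPM in fatigued controls and 9.03 CPM in fatigued PBMT mice. Over the 24 mice it ranged from 6.99 to 12.4 CPM, and the groups overlapped. With PBMT the log2 fold change was 0.10 in sedentary muscle (95% interval -0.09 to 0.30) and 0.13 in fatigued muscle (-0.12 to 0.37). In fits that left out a mouse the value in fatigued muscle lay between 0.0329 and 0.210. Fatigued mice differed from sedentary mice, in exercise and project together, by 0.19 among controls (-0.03 to 0.42, edgeR adjusted p = 0.225) and by 0.21 with PBMT (0.01 to 0.42, adjusted p = 0.116). In the latter case Gclc was the member that passed at an unadjusted p under 0.05 without an adjusted call. A processed pseudogene on the same strand, Gm6061, and the opposite-strand Gm17494 overlap the partner gene Gclm, and held 136 and 32 counts beside 21637 for Gclm.

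Txnrd1 (ENSMUSG00000020250, chr10:82833951-82897712, plus strand) encodes the cytosolic thioredoxin reductase, a selenoprotein that keeps thioredoxin reduced. Its lowest, median and highest values were 73.5, 78.0 and 86.8 CPM in sedentary controls and 74.0, 81.8 and 93.1 CPM in sedentary PBMT mice. In fatigued controls they were 85.8, 98.4 and 133 CPM, and with PBMT they were 87.6, 98.5 and 134 CPM. The PBMT and control groups of a state overlapped widely, while 5 of 6 fatigued controls lay above the highest sedentary control and 3 of 6 fatigued PBMT mice above the highest sedentary PBMT mouse. The log2 fold change with PBMT was 0.06 in sedentary muscle (95% interval -0.09 to 0.21) and 0.03 in fatigued muscle (-0.23 to 0.29). Txnrd1 rose by 0.36 from sedentary to fatigued controls (standard error 0.0942, 1.28-fold, edgeR adjusted p = 0.0172), a call kept in 12 of 12 fits that left out a mouse. Among PBMT mice it rose by 0.33 (1.26-fold, edgeR adjusted p = 0.0265), and exercise cannot be told apart from project in either comparison. Of 12 such fits, 5 lost it, those without sedentary PBMT mice 2, 4 or 5 or fatigued PBMT mice 4 or 6, where the log2 fold change was 0.25 to 0.32 and the adjusted p 0.0549 to 0.0658.

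The last 3 members remove superoxide and hydrogen peroxide. Sod1 (ENSMUSG00000022982, chr16:90220754-90226329, plus strand) encodes the cytosolic copper and zinc superoxide dismutase. Its lowest, median and highest values were 88.9, 90.9 and 127 CPM in sedentary controls and 90.6, 95.7 and 108 CPM in sedentary PBMT mice. In fatigued controls they were 102, 108 and 115 CPM, and with PBMT they were 96.6, 115 and 127 CPM. A single mouse, replicate 4, gave the high end of the sedentary controls, and 4 of 6 fatigued PBMT mice lay above the highest sedentary PBMT mouse. With PBMT the log2 fold change was -0.01 in sedentary muscle (95% interval -0.19 to 0.17) and 0.07 in fatigued muscle (-0.07 to 0.20). Between fatigued and sedentary controls, whose projects differed as well, it was 0.14 (-0.03 to 0.32, edgeR adjusted p = 0.252), and without sedentary control replicate 4 it was 0.22 with an adjusted p of 0.00560, which passed the threshold. Among PBMT mice Sod1 rose by 0.22 with fatigue and project together (standard error 0.0718, 1.16-fold, edgeR adjusted p = 0.0343). Of 12 fits that left out a mouse, 8 lost this call, namely those without sedentary PBMT mice 1, 2, 3, 4 or 5 or fatigued PBMT mice 1, 2 or 3, where the log2 fold change was 0.18 to 0.23 and the adjusted p 0.0507 to 0.0820. The difference between the PBMT and the control value was 0.08 (-0.15 to 0.31, edgeR adjusted p = 0.949).

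Sod2 (ENSMUSG00000006818, chr17:13006846-13040063, plus strand) encodes the manganese superoxide dismutase of the mitochondrial matrix. Its median expression was 353 CPM in sedentary controls, 341 CPM in sedentary PBMT mice, 317 CPM in fatigued controls and 310.2 CPM in fatigued PBMT mice, with 254 to 367 CPM over the 24 mice. Sedentary control replicate 4 was the lowest mouse of all. The log2 fold change with PBMT was -0.02 in sedentary muscle (95% interval -0.21 to 0.18) and -0.06 in fatigued muscle (-0.21 to 0.09). Fatigued mice, of the other project, differed from sedentary mice by -0.10 among controls (-0.29 to 0.09, edgeR adjusted p = 0.499) and by -0.14 with PBMT (-0.30 to 0.02, adjusted p = 0.173). Without sedentary control replicate 4 the control value was -0.18 with an adjusted p of 0.0318, which passed the threshold. The mitochondrial and the cytosolic dismutase thus had opposite signs, and each call among controls appeared only when that mouse was left out.

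Cat (ENSMUSG00000027187, chr2:103453849-103485160, minus strand) encodes catalase, the peroxisomal enzyme that splits hydrogen peroxide. Its median expression was 63.3 CPM in sedentary controls, 61.6 CPM in sedentary PBMT mice, 59.0 CPM in fatigued controls and 64.0 CPM in fatigued PBMT mice, with 52.7 to 71.1 CPM over the 24 mice. The 4 groups overlapped. With PBMT the log2 fold change was -0.04 in sedentary muscle (95% interval -0.21 to 0.12) and 0.10 in fatigued muscle (-0.04 to 0.24), and the difference between the states was 0.15 (-0.05 to 0.35, edgeR adjusted p = 0.946). From sedentary to fatigued mice, with the project changing too, it was -0.05 among controls (-0.21 to 0.11, adjusted p = 0.698, and -0.10 without sedentary control replicate 4) and 0.09 with PBMT (-0.05 to 0.24, adjusted p = 0.313). Cat was the member that varied least between mice of a group.

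**Figure D3:**
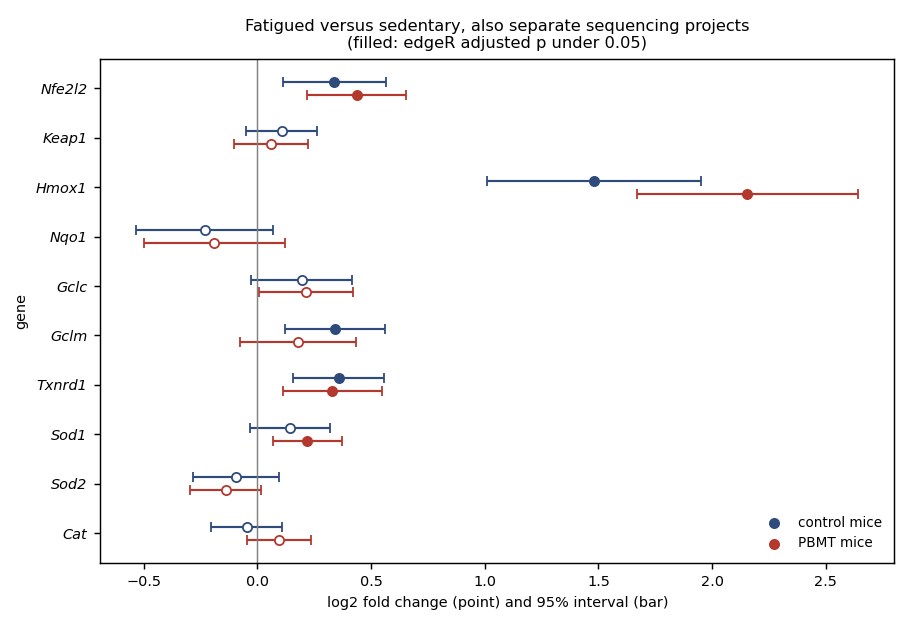
Log2 fold change of fatigued over sedentary muscle for each member among control mice and among PBMT mice, with points for the edgeR estimates (6 against 6 mice) and lines for their 95% intervals. Hmox1 stands at 1.48 and 2.16, and the other members lie between -0.23 and 0.44.

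Members were also described by how they varied together within groups, as correlations of log2 CPM over the 24 mice after the mean of each group was subtracted. The values of a pair share the same library and its depth, so the coefficients are descriptions. Of the 45 pairs of members, 29 were positive, with a median r of 0.121. The highest was 0.620 for Gclc and Txnrd1, and the lowest was -0.669 for Sod1 and Sod2, which was -0.372 without sedentary control replicate 4. Without that mouse 26 pairs were positive, with a median of 0.0979. Pairs of members thus went in both directions, and no test was made of them. Among 15107 other genes, those most like Nfe2l2 were Picalm (r = 0.833) and Klf9 (0.831), and those most like Keap1 were Bsdc1 (0.925) and Gtpbp4 (0.922). Hmox1 was most like Emp1 (0.836) and Nts (0.833), the latter at a mean of 0.196 CPM, and Nqo1 was most like Ctxn3 (0.770) and Nudt11 (0.737). Gclc was most like Socs5 (0.848) and Rnf19a (0.817), and Gclm was most like D2hgdh (0.698) and Cdc42se2 (0.685). Txnrd1 was most like Ankrd33b (0.886) and Cnksr1 (0.846), Sod1 like Mien1 (0.884) and Psme2 (0.851), Sod2 like Grsf1 (0.919) and Idh3a (0.916), and Cat like Sp1 (0.798) and Tia1 (0.789). None of these genes was another member, and with each mouse left out in turn the 20 coefficients lay between 0.607 (Gclm and Cdc42se2) and 0.961 (Keap1 and Gtpbp4).

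Since several members were higher in the same groups, their promoters were searched for the core of the antioxidant response element, TGACNNNGC, on both strands. RefSeq entries of the GRCm38.p6 build, each of 300 bases with 250 before and 50 after a transcription start, were available for 8 of 10 members, with 3 entries for Txnrd1. The core was found in 1 entry each of 4 members, Nfe2l2, Gclm, Txnrd1 and Sod1, beside 12.4% of all 32851 promoters and, by gene, 13.99% of 27025 genes. The AP-1 motif TGANTCA, which an antioxidant response element may contain, was found in 0 members beside 7.81% of all promoters and 8.97% of genes. The matches lie at chr2:75704895-75704903 for Nfe2l2 (bases -240 to -232 from the start of the entry, gene on the minus strand, match on the strand of the gene) and at chr3:122245423-122245431 for Gclm (-134 to -126, plus strand, match on the opposite strand). Those of Txnrd1 and Sod1 lie at chr10:82859114-82859122 (-92 to -84) and at chr16:90220706-90220714 (-56 to -48), both with the gene on the plus strand and the match on the opposite strand. The Txnrd1 entry with the match, chr10:82858956-82859255, belongs to a start inside the annotated gene, and the entry at the annotated start, chr10:82833701-82834000, holds no match. The matches are printed here with up to 20 bases on either side, 5′ to 3′ on the strand of the gene, since these are the 4 members in which the letters occur, and capitals mark the core or its reverse complement.
Nfe2l2: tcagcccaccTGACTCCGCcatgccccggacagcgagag
Gclm: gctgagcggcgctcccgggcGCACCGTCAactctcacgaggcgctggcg
Txnrd1: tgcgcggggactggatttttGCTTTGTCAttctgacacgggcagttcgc
Sod1: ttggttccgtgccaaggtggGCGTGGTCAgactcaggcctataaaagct
A match is a description of the window alone, and its relation to the calls of these 4 genes was not tested. For Hmox1 and Gclc no entry was available, and the absence of the letters in the windows of Keap1, Nqo1, Sod2 and Cat says nothing of more distant sequence.

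The wider pathway was followed in 9 lists that hold 147 genes with the members. For PBMT against control, edgeR called 0 of 132 tested genes in sedentary muscle, with 16 at an unadjusted p under 0.05 beside 1082 of all 14177 genes. It called 0 of 134 in fatigued muscle, with 0 unadjusted beside 230 of all 14574. DESeq2 called 1 and 0, beside 62 and 2 of all genes, with 20 and 3 at an unadjusted p under 0.05, beside 1185 and 262. In sedentary muscle 41 of the 132 log2 fold changes were positive, with a median of -0.07, beside 49.6% and -0.00 over all genes, and in fatigued muscle 85 of 134 were positive, with a median of 0.03. By list, the lowest medians in sedentary muscle were those of superoxide and hydrogen peroxide producers (0 of 9 positive, -0.31), NADPH supply (2 of 10, -0.12) and heme and iron handling (3 of 13, -0.09). In the same comparison 0 of 9 macrophage markers (median -0.59), 0 of 6 neutrophil markers (median -0.44) and 0 of 6 interstitial mesenchymal markers (median -0.18) were positive, and their part in the pathway values was not tested. Summed neutrophil markers were 1.10 and 5.86 CPM in PBMT replicates 1 and 2. The other PBMT mice lay at 32.3 to 66.7 CPM, beside 28.2 to 61.8 CPM in controls. The highest mesenchymal sum of the sedentary mice, 1017 CPM, was that of a PBMT mouse. The gene called by DESeq2 was Txnip, which encodes an inhibitor of thioredoxin and was singled out after its values were seen. Its list, the thioredoxin and peroxiredoxin system, had 6 of 19 genes positive there, with a median of -0.08. Txnip lay at 393 to 674 CPM in sedentary controls and at 672 to 802 CPM in sedentary PBMT mice, so that the groups met at a single control. Its log2 fold change was 0.64 (95% interval 0.41 to 0.87), with an adjusted p of 0.0503 in edgeR and of 1.22e-04 in DESeq2, and of 1.22e-04 to 0.180 over 17 alternatives, 5 of which called it. Without sedentary control replicate 4 it was 0.76 (adjusted p = 1.26e-04), and without sedentary PBMT replicate 2 it was 0.67 (adjusted p = 0.0398). The PBMT effect in fatigued muscle minus that in sedentary muscle was -0.41 (-0.75 to -0.06, edgeR adjusted p = 0.946).

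Between fatigued and sedentary mice, where exercise and project cannot be told apart, 18 of 122 tested pathway genes other than the members were called higher and 7 lower among controls, beside 9.36% and 7.16% of all genes, with a median log2 fold change of -0.03. With the members 29 were called, and this count was 48 without sedentary control replicate 4 and 19 without fatigued control replicate 6. Among PBMT mice 26 of 123 were higher and 15 lower, beside 14.2% and 12.7% of all genes, with a median of 0.09. Here and for the lists that follow, values with PBMT beside values among controls are fatigued against sedentary muscle in PBMT mice. By role, the Nrf2 regulators, Nfe2l2 included, gave 7 higher and 0 lower of 19 among controls and 7 higher and 2 lower (Cul3 and Sesn3) with PBMT. The small Maf partner Maff rose by 2.06 among controls (3.78 ± 0.709 to 15.7 ± 3.13 CPM, SD, n = 6 each, edgeR adjusted p = 6.14e-07) and by 3.33 with PBMT (adjusted p = 6.16e-04). Mafk rose by 1.19 and 1.70, and the repressor Bach1, which competes with Nrf2 for the small Maf proteins, rose by 0.92 among controls (adjusted p = 6.55e-05) and by 1.30 with PBMT (adjusted p = 1.68e-04). Bach2 rose by 0.88 among controls (adjusted p = 0.00317) and by 0.70 with PBMT (adjusted p = 0.0310). The partners Maff and Mafk and the repressors Bach1 and Bach2 were thus called higher in both comparisons.

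Among the target and enzyme lists, counted in the same confounded comparisons, heme and iron handling, which holds Hmox1, gave 4 higher and 1 lower of 13 among controls and 5 and 2 with PBMT. Of its 13 genes 6 were positive among controls, with a median of -0.06, and 7 with PBMT, with a median of 0.09. The metallothioneins Mt1 and Mt2 rose by 1.67 and 1.97 among controls and by 2.79 and 3.24 with PBMT. The ferritin light chain gene Ftl1 was also higher in both, and the iron exporter gene Slc40a1 was lower in both. Hp, a hemoglobin scavenger, rose by 1.93 from sedentary to fatigued muscle among PBMT mice (edgeR adjusted p = 0.0237), and Fech was lower in the same comparison. Of the 5 superoxide dismutase and catalase genes, 1 was higher among controls, the extracellular Sod3 at 0.85 (adjusted p = 0.0183), and 2 with PBMT, Sod1 and Sod3. NADPH supply gave 1 higher (Nadk) and 1 lower (Nadk2) of 10 among controls and 2 (Nadk and Pgd) and 1 (Nadk2) of 9 with PBMT. Superoxide and hydrogen peroxide producers gave 1 higher (Xdh) and 0 lower of 9 among controls. Other Nrf2 targets gave 3 higher (Osgin1, Cbr3 and Ugdh) and 0 lower of 18 among controls, led by Osgin1 at 1.30, and 7 and 1 (Nqo2) of 19 with PBMT. The largest value of the latter was that of Aldh3a1, 2.17 (95% interval 0.82 to 3.51, adjusted p = 0.0202), at low means of 0.152 CPM in sedentary and 0.695 CPM in fatigued PBMT mice, with Ugdh at 1.603 and Osgin1 at 1.40.

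The remaining lists cover glutathione, with Gclc and Gclm, and thioredoxin, with Txnrd1, in the same comparisons, where exercise is also project. Glutathione synthesis and recycling gave 3 higher (Gclm, Slc3a2 and Ggt5) and 1 lower (Glrx5) of 18 among controls. With PBMT it gave 2 higher (Slc3a2 and Ggt5) and 4 lower (Chac2, Glrx2, Glrx3 and Glrx5). Glutathione peroxidases and transferases gave 0 higher and 1 lower (Gsto1) of 21 among controls and 1 (Gsta3) and 2 (Gstm5 and Gstt2) with PBMT. The thioredoxin and peroxiredoxin system gave 2 higher, Txnrd1 and Srxn1, of 19 in each comparison, and 3 lower, Prdx1, Prdx2 and Msrb2 among controls and Prdx1, Msrb2 and Txnip with PBMT. In it, Srxn1, which repairs oxidized peroxiredoxins, rose by 1.67 among controls (27.6 ± 3.09 to 87.1 ± 33.5 CPM, SD, n = 6 each, edgeR adjusted p = 7.29e-05) and by 1.96 with PBMT (adjusted p = 4.72e-05). Beside Txnrd1, then, the gene that repairs peroxiredoxins was higher and the peroxiredoxin gene Prdx1 was lower in both comparisons.

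The most abundant transcript of each list, as mean CPM per kilobase, was Park7 (495) among the regulators, Glrx3 (67.0) in glutathione synthesis and recycling and Gpx4 (217) among the peroxidases and transferases. It was Selenow (954) in the thioredoxin system, Sod1 (162) among dismutases and catalase, Fth1 (803) in heme and iron handling and Me1 (74.4) in NADPH supply. Atf4 (96.5) led the other targets and Xdh (8.64) the oxidant producers. On this scale of level, Sod1 was the only member that led a list, although by merged exon length Sod2 (32.1) ranked above Sod1 (26.2). Genes under 10 counts in every mouse were Nfe2l3, Ggt1, Gpx2, Gsta1, Gsta2, Ugt1a6a, Gdf15 and Nox1, and 0 genes of the pathway lists were without a count.

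Transcripts that mark cell types moved with the fatigued groups, whose project differed too, while PBMT against control gave 0 called markers by edgeR in each of 11 lists in either state. The macrophage list was led by Lyz2 at 26.2 CPM per kilobase. In fatigued against sedentary muscle it had 3 of 9 genes (Csf1r, Cd163 and Cd14) higher among controls and 6 of 9 among PBMT mice. Its summed expression had a lowest, median and highest value of 54.9, 80.0 and 139 CPM in sedentary controls, 40.1, 51.3 and 77.1 CPM in sedentary PBMT mice, 82.5, 105 and 151 CPM in fatigued controls and 59.3, 102 and 216 CPM in fatigued PBMT mice. The highest sums of the fatigued groups were those of replicate 5 in each, the mice with the highest Hmox1. In fatigued controls replicate 2 was the lowest in both the sum and Hmox1. Among fatigued PBMT mice, however, replicate 2 had a sum of 141 CPM with the lowest Hmox1, 11.3 CPM. Replicate 1 of that group had the lowest sum, 59.3 CPM, with an Hmox1 of 22.8 CPM. In sedentary muscle 0 of 9 macrophage genes were positive for PBMT against control, with 5 at an unadjusted p under 0.05 and a median of -0.59. The interstitial mesenchymal list was led by Dcn at 166. In fatigued against sedentary muscle it had 3 of 6 genes (Pdgfra, Col1a1 and Ly6a) higher among controls and 4 of 6, with Col3a1, among PBMT mice. Its sum was 656, 829.7 and 1008 CPM in sedentary controls, 529, 608 and 1017 CPM in sedentary PBMT mice, 918, 1287 and 1519 CPM in fatigued controls and 853, 1217 and 3121 CPM in fatigued PBMT mice, the last in replicate 5. The part of macrophage and mesenchymal cells in the higher Hmox1, Nfe2l2, Gclm, Txnrd1 and Sod1 was not tested.

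Neutrophil genes, led by S100a9 at 15.3, were lower in fatigued mice, with 6 of 6 called among controls and 2 of 2 tested (S100a8 and S100a9) with PBMT. Their sum was 28.2, 36.5 and 61.8 CPM in sedentary controls, 1.10, 32.6 and 66.7 CPM in sedentary PBMT mice, 0.219, 0.262 and 2.54 CPM in fatigued controls and 0.440, 1.04 and 1.90 CPM in fatigued PBMT mice. Fast fiber genes had 3 of 8 (Acta1, Myh4 and Tnnt3) higher in both comparisons, with sums of 107779, 119490 and 157965 CPM in sedentary controls, 114093, 132873 and 140306 CPM in sedentary PBMT mice, 137849, 166654 and 176914 CPM in fatigued controls and 144480, 161591 and 173900 CPM in fatigued PBMT mice. Slow fiber genes (Myl3 at 45.4) had 1 higher (Atp2a2) and 1 lower (Myl3) of 6 among controls and 1 higher (Atp2a2) with PBMT. Endothelial genes (Pecam1 at 26.8) had 0 and 1 (Pecam1) of 5 higher, adipocyte genes (Cfd at 21.7) 1 (Cidec) and 0 of 5, and red blood cell genes (Hbb-bs at 74.4) and Schwann cell genes (Mbp at 32.7) 0 of 5 each in both. The keratinocyte list (Krt10 at 1.26) had 1 gene tested, called lower in fatigued than in sedentary PBMT mice. The liver list (Alb at 0.416) had 0 tested, with a highest sum of 18.5 CPM in fatigued control replicate 5. That mouse also held the highest value of its group for 6 of 10 members (Hmox1, Gclc, Gclm, Txnrd1, Sod1 and Cat) and the lowest for 1 (Nfe2l2). Slc4a1 of the red blood cell list was under 10 counts in every mouse, and 0 genes of the 11 lists were without a count. The part of these cell types in the values of the members was not tested either.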

How the data were processed

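Poly(A)-selected, directional RNA libraries of the left TA of 24 mice were analysed, 6 in each of 4 groups. The authors deposited raw counts of each gene in each mouse, as whole numbers that were not normalized. The submitters' processing notes name Trimmomatic, STAR 2.7.1a, Picard 2.20.4, StringTie 2.0.4, featureCounts 1.6.0, HTSeq and the build GRCm38. Which of these made the deposited counts, the strand setting and the annotation release are not given in the sources used here, so reads of genes that overlap a member cannot be told apart from its own. Of 55487 identifiers, 55227 matched GENCODE M21 (GRCm38), which gave symbols, coordinates and lengths, and 212 of 212 list genes were matched.

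Each comparison was fitted over all genes with edgeR 4.0.16 under R 4.3.3, using TMM factors (0.949 to 1.08), filterByExpr with a minimum count of 10, robust quasi-likelihood tests and Benjamini-Hochberg adjustment at 0.05. The difference of the PBMT effects was fitted on all 24 mice. CPM used TMM totals over the 24 mice, and log2 values a prior count of 2. Single members were also tested by two-sided exact permutation of 6 against 6 mice. Python 3.11.15 with NumPy 2.4.6 and SciPy 1.17.1 was used for the remainder. The fit was tested on simulated data. The lowest chi-square per gene between libraries of a group was 13.4, so no such pair was a duplicate.

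Named genes include the 10 members, the most abundant gene of each list per length, and for each member the 2 genes most like it. In each comparison at most the 10 called pathway genes with the largest absolute log2 fold change were taken first. Further called genes of the pathway and marker lists were named beside their counts. Genes that overlap a member and genes under 10 counts in every mouse were named too. Txnip and the other called genes of the pathway and marker lists were named after their values were seen. The lists were, for the pathway, Nrf2 regulators, glutathione synthesis and recycling, glutathione peroxidases and transferases, thioredoxin and peroxiredoxin system, superoxide dismutases and catalase, heme and iron handling, NADPH supply, other Nrf2 targets, and superoxide and hydrogen peroxide producers. The markers were of fast fiber, slow fiber, macrophage, neutrophil, red blood cell, endothelial, interstitial mesenchymal, adipocyte, Schwann, keratinocyte and liver cells. Members and lists were chosen with earlier results of these data known. Promoters are from RefSeq (GRCm38.p6).

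Alternatives were no filter, DESeq2 size factors, DESeq2 1.42.0, the replicate number as a block, all 24 mice in a single model, and leaving out each mouse in turn, which for the correlations was chosen after seeing the data. Histology and treadmill data were left out, since only the deposited counts were used. The paper reports longer runs with PBMT than in controls at 24 h. PBMT and run time may therefore not be separable in the fatigued groups. The counts of the list of superoxide and hydrogen peroxide producers among PBMT mice are not reported here.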

Additional observations from a re-analysis of the deposited data

Results flagged for a closer look

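In each of the 4 groups of 6 mice, the highest and the lowest mouse of each member were compared with the nearest other mouse. A mouse is listed where that gap exceeds 0.625 of the range of the group, which held for 7 of 40 pairs of a gene and a group. Chance gives about 1 in 20 groups.

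Sedentary control replicate 4 was apart in both dismutases, with a Sod1 of 127 CPM, the nearest mouse being at 102 CPM, and a Sod2 of 254 CPM, the nearest being at 338 CPM. In the same group, replicate 1 had a Gclm of 17.2 CPM, beside 14.2 CPM in the nearest mouse. Among sedentary PBMT mice, replicate 2 had an Hmox1 of 6.25 CPM, beside 4.70 CPM, and replicate 6 a Sod2 of 281 CPM, beside 335 CPM. Gclc was high in a single mouse of each fatigued group, at 11.2 CPM in control replicate 5, beside 8.97 CPM, and at 12.4 CPM in PBMT replicate 6, beside 9.55 CPM. Why these mice were apart was not tested.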

How the results depend on the processing

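Apart from leaving out a mouse, the log2 fold changes of the members kept their direction and their side of the threshold in 49 of 50 values for PBMT in sedentary muscle, 50 of 50 in fatigued muscle, 30 of 30 for the difference between the states, and 30 of 30 in each comparison of fatigued with sedentary mice. The exception was Sod1 in sedentary muscle, at 0.00109 with the replicate block in place of -0.01. No member was called with PBMT under any alternative run, those that left out a mouse included.

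The number of genes called with PBMT in sedentary muscle, 4, was 16 with no filter, 62 with DESeq2, 11 with the replicate block and 1 with all 24 mice in a single model. For pathway genes, 0 became 1 (Txnip) with no filter, with DESeq2 and with the replicate block. In fatigued muscle 0 genes became 2 with DESeq2 and 1 with the replicate block, and for the difference between the states 1 became 3 with DESeq2. With the size factors of DESeq2 these counts were as given. The labels do not say that mice of the same number belong together. Over all genes their deviations from the group means correlated at -0.0715 to 0.0664 in sedentary muscle, with 0 of 6 pairs over 0.1 and 0 of 6 best with their own number. In fatigued muscle they correlated at -0.0846 to 0.325, with 4 of 6 over 0.1 and 3 of 6 best with their own number, a hint from the data that did not hold for every pair, so the mice were not treated as paired. The cause was not tested.

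In fits that each left out a mouse, 2 to 20 genes were called with PBMT in sedentary muscle, with 20 without PBMT replicate 5 and 18 without control replicate 4, and 0 to 1 pathway genes. For the difference between the states 1 to 3 genes were called, with 3 without sedentary PBMT replicate 2. Among controls, fatigued against sedentary mice gave 1681 to 3956 genes, 2 to 6 members and 19 to 48 pathway genes, the highest of each without sedentary control replicate 4. Among PBMT mice they gave 2 to 4 members. The cause was not tested.

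Members whose sign changed when a mouse was left out were, with PBMT in sedentary muscle, Keap1 (-0.0270 to 0.0613), Hmox1 (-0.193 to 0.0168), Nqo1 (-0.105 to 0.109), Sod1 (-0.0402 to 0.0732) and Sod2 (-0.0921 to 0.0260). In fatigued muscle they were Nfe2l2 (-0.0550 to 0.0720), Keap1 (-0.0948 to 0.00155), Nqo1 (-0.0494 to 0.0871), Gclm (-0.0245 to 0.104) and Txnrd1 (-0.0550 to 0.124). For the difference between the states they were Nqo1 (-0.0787 to 0.128), Gclc (-0.0720 to 0.104), Txnrd1 (-0.114 to 0.0637), Sod1 (-0.00880 to 0.115) and Sod2 (-0.0895 to 0.0296). None of these was a called value, and the cause was not tested. In the fatigued against sedentary comparisons no sign changed, while 17 of 120 values among controls and 13 of 120 with PBMT lost their call and 2 among controls gained it. Of the correlations given, only that of Sod1 and Sod2 moved by over 1.5 times when a mouse was left out, an alternative chosen after seeing the data, from -0.669 to -0.372 without sedentary control replicate 4.

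Depth did not limit the members, since each was counted at least 149 times in every mouse. The limits lie in 6 mice a group, in the project that coincides with exercise, in a single time point of 24 h and in transcripts standing for a pathway that is largely controlled at the protein level.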
